A study of Mus musculus with 18 samples.

Results

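The 33 interferon-stimulated genes described here encode signalling factors, viral RNA sensors and antiviral effectors that cells make in response to interferon. They were chosen by name, through the mouse GRCm38 annotation of their Ensembl identifiers, and all 33 were found among the 46078 identifiers of each deposited gene table. The tables come from a study of female mice without Xist, the noncoding RNA that coats and silences an X chromosome in female cells. Per the labels, mutants carried a homozygous Xist deletion, and controls carried the same deletion heterozygously, so the controls were not wild type even though the table columns call them WT. RNA came from primary tail-tip fibroblasts (3 mutant and 3 control libraries) and from postnatal day 1 spleen, liver and brain (2 mutant and 2 control libraries of each). The study calls its replicates biological, but strain, litter, fibroblast passage and the extent of the deletion were not stated. Each member was compared between mutants and controls within a tissue, library by library.

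Interferons are secreted proteins that bind receptors on the cell surface and activate the kinases Jak1 and Tyk2. These phosphorylate Stat proteins, of which Stat2 joins Irf9 in a complex that enters the nucleus and binds the interferon-stimulated response element (ISRE) of target promoters. Many targets act in the same pathway, since the sensors and Irf7 help to make more interferon, and a low level of several of them is kept up in uninfected cells by tonic signalling. None of the 33 genes is X-linked, and they lie on 14 autosomes.

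The response element is the feature that these promoters are best known for, so windows from 250 bases before to 50 bases after the RefSeq start (GRCm38.p6) were searched. The ISRE core was read as GAAA, any 2 bases and GAAA again, on either strand. A window was at hand for 23 of the 33 members, and 12 of the 23 (52.2%) held the core. It stood in 22 of 53 (41.5%) other interferon-stimulated genes with a window and in 1079 of 27025 (3.99%) genes of all kinds. The letters TTCNNNGAA of the gamma-activated site, a palindrome, stood in 6 of 23 members (26.1%) and in 9.55% of all genes, and they overlapped an ISRE core in Bst2 and Ifitm3. The 160 bases before the first annotated start are shown for 7 members with the core there and, as the neighbour of Rsad2 without one, for Cmpk2. Capitals mark the ISRE core, in either orientation, and each sequence is written 5′ to 3′ on the strand of its gene.
Isg15 (chr4:156200819-156200978, minus strand, GRCm38.p6): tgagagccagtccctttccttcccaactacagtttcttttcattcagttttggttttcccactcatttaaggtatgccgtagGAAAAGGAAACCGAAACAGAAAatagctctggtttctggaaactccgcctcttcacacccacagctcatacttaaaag
Ifit1 (chr19:34640711-34640870, plus strand, GRCm38.p6): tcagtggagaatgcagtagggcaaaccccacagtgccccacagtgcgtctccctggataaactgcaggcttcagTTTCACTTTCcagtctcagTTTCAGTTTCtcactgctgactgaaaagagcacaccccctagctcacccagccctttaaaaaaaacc
Ifit3 (chr19:34583369-34583528, plus strand, GRCm38.p6): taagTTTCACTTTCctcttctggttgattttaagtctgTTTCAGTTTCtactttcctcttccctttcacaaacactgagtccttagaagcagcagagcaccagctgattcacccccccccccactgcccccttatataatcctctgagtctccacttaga
Oas1a (chr5:120907526-120907685, minus strand, GRCm38.p6): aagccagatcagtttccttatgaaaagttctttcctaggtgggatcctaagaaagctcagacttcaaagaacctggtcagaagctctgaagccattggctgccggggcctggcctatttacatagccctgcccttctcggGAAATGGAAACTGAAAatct
Oas3 (chr5:120777662-120777821, minus strand, GRCm38.p6): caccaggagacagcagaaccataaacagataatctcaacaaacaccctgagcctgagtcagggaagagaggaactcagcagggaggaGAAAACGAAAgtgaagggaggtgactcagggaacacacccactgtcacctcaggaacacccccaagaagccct
Bst2 (chr8:71537473-71537632, minus strand, GRCm38.p6): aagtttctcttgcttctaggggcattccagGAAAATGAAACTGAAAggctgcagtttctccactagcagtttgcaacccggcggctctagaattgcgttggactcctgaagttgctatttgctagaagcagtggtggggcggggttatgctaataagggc
Rsad2 (chr12:26456453-26456612, minus strand, GRCm38.p6): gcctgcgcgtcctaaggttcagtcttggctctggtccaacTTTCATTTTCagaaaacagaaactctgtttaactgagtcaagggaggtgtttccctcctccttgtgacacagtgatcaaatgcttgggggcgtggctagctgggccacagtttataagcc
Cmpk2 (chr12:26469044-26469203, plus strand, GRCm38.p6): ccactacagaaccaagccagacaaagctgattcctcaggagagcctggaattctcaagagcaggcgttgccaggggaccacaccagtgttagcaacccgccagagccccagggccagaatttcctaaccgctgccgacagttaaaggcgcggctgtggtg
Isg15 held 3 overlapping cores in a row, Oas1a and Bst2 held 2 that overlap, Ifit1 and Ifit3 held 2 set apart, and Oas3 and Rsad2 held 1 each. The other members with a core in their window were Ifih1, Ddx58, Ifitm3, Eif2ak2 and Stat2. Of the members with a window, Irf7, Irf9, Ifit2, Ifi44, Oasl1, Oasl2, Ifi35, Xaf1, Trim25, Herc6 and Cmpk2 had no such letters in it. No window was read for Dhx58, Mx1, Mx2, Oas2, Usp18, Zbp1, Rtp4, Parp9, Parp14 and Ifi27.

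The unit of every level below is the deposited signal, a scaled read count in which 1 read was worth 0.0343 to 0.0751. A count of 0 allows up to 3 reads, or a signal of 0.103 to 0.225, from counting error alone. Libraries held 12356231 to 29154395 reads in genes. Xist itself was lower in every mutant library than in every control library of its tissue, with 2.33 to 13.5 in mutant fibroblasts against 70.5 to 141 in controls, 51.2 and 117 in mutant spleens against 1121 and 1205, 178 and 257 in mutant livers against 594 and 730, and 3.62 and 4.15 in mutant brains against 666 and 683. Whether those mutant reads come from undeleted parts of Xist or from its antisense partner Tsix was not tested. Defining markers of the labelled samples were present: the 7 fibroblast markers summed to 20512 to 36881 in fibroblasts, 6 hepatocyte markers to 105774 to 131313 in liver, 5 neuronal markers to 5876 to 6898 in brain, and 7 erythroid markers to 17182 to 38641 in spleen, which overlap their 7565 to 28862 in newborn liver. The design text of the series names heart where the sample labels name brain, and the labels were followed. In these bulk samples, fewer cells of a type and less RNA per cell cannot be told apart.

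Across tissues, the members stood lowest in brain, and the first place of fibroblasts by median rested on 1 library, mutant 3. Their median signal per kb of exon was 6.01 in fibroblasts, 3.39 in spleen, 2.29 in liver and 0.245 in brain. Without mutant 3 the median in fibroblasts was 3.05, below that of spleen. Fibroblasts gave the highest mean for 21 members, spleen for 11 and liver for 1, Parp9. Without mutant 3 fibroblasts gave it for 13, and the 8 that lost it were Stat2, Irf7, Irf9, Ifit2, Dhx58, Mx2, Usp18 and Ifi35. Spleen then gave the highest mean for these 8 apart from Mx2 and Usp18, which were highest in liver. Brain gave the lowest mean for 31 members, and for 19 of them no brain library overlapped a library of another tissue. The exceptions were Ifit2, lowest in liver, and Cmpk2, lowest in fibroblasts. The tissues were normalized in separate tables, so these levels describe the tables and were not tested.

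Per kb of exon, Ifitm3, a membrane protein that blocks virus entry, was the highest member in fibroblasts at 295, with Ifi27 at 54.6 and Bst2, which tethers budding virus, at 44.3. In spleen Ifitm3 averaged 67.4 per kb and Rsad2 45.5 per kb. In liver Rsad2, the antiviral enzyme viperin, was first with 32.1 per kb and Ifitm3 second with 21.9 per kb. In brain the first was Stat2 with 6.14 per kb, then Cmpk2, a mitochondrial nucleotide kinase, with 4.28 per kb. Isg15, a ubiquitin-like modifier of other proteins, averaged 29.5 per kb in fibroblasts (10.5 per kb without mutant 3) and 0.0608 per kb in brain, where 2 of the 4 libraries had no read of it. The first tissue of a gene overlapped another tissue in most cases. Fibroblasts stood clear of all other tissues for 2 of their 21 first places, those of Ifitm3 and Ifi27, and spleen for 0 of its 11.

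**Figure D1:**
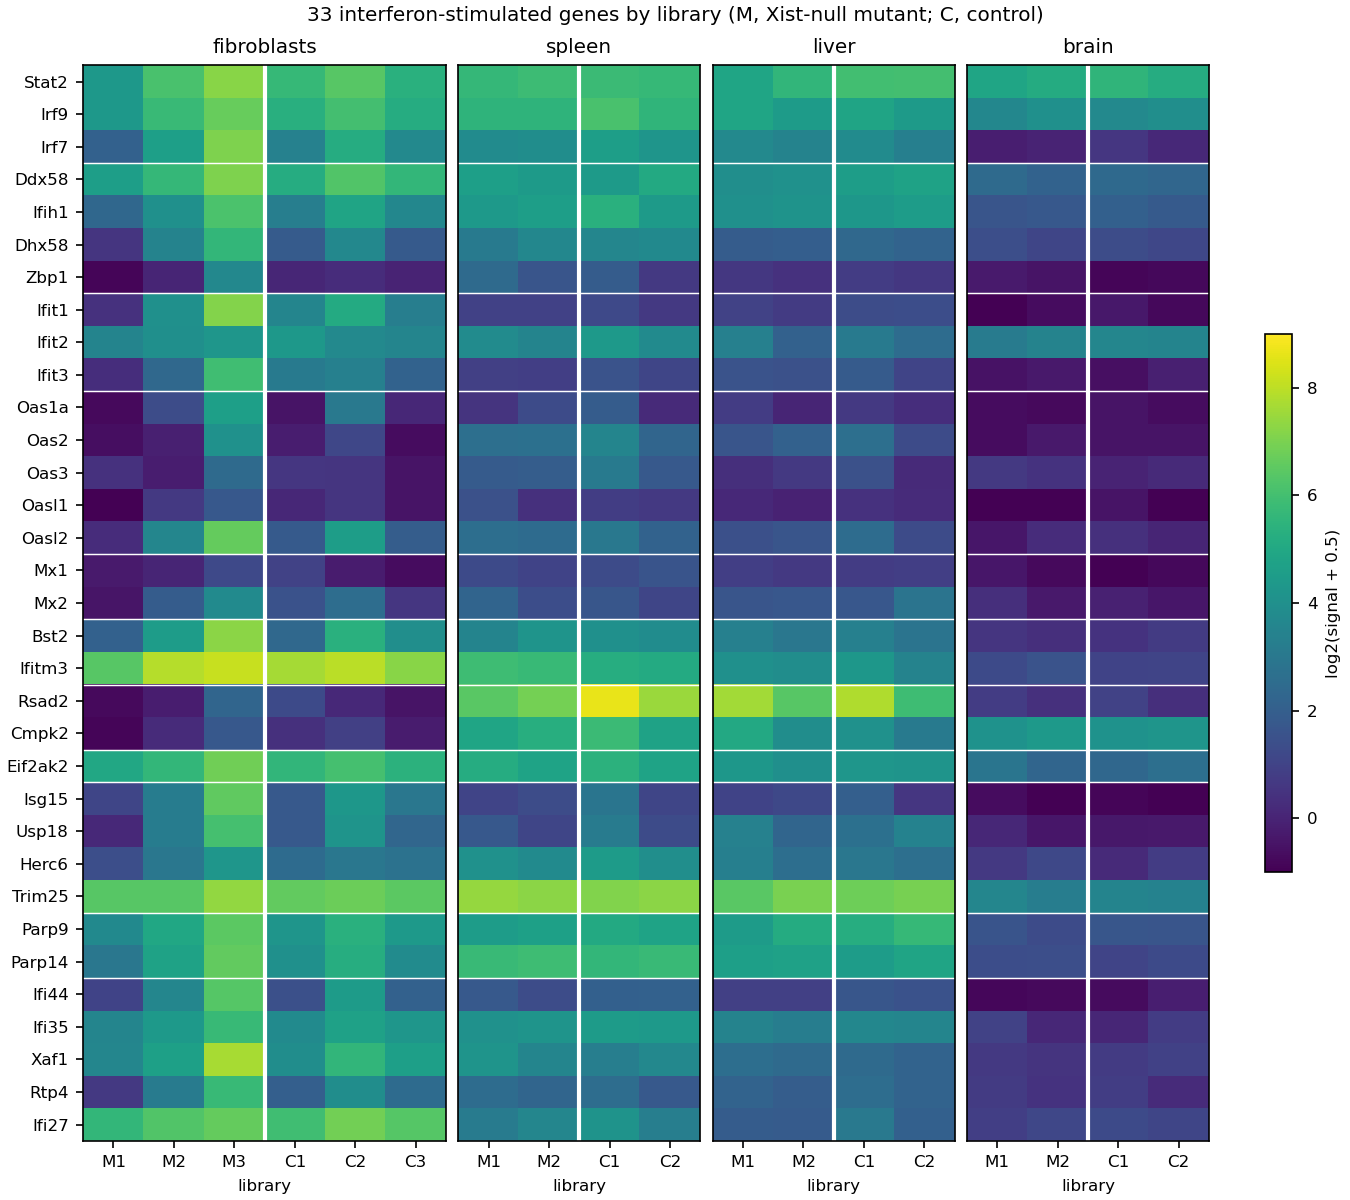
Signal of the 33 members, on a colour scale of log2(signal + 0.5), in the 18 libraries, with genes grouped by role between white lines and mutants (M) left of controls (C) in each tissue. Fibroblast mutant 3 is the brightest column for most members and fibroblast mutant 1 the darkest fibroblast column, Rsad2 is bright in spleen and liver, and brain is dark apart from Stat2, Irf9, Ifit2, Cmpk2, Trim25 and a few weaker rows.

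No member passed limma, DESeq2 or edgeR in any tissue when fitted without a replicate term. In fibroblasts 31 members had the mean signal of at least 1 needed for the test, all but Mx1 and Oasl1, and limma called 0 of 31 members at an adjusted p of 0.05 and 0 of 13077 genes (0.0%). The same counts were 0 of 33 members in spleen (0.0% of 16578 genes), 0 of 31 in liver (0.0% of 15075 genes; Oas1a and Oasl1 were too low) and 0 of 16 in brain (0.0237% of 16909 genes). DESeq2 called no member either, against 0.0229%, 1.1%, 1.4% and 0.242% of genes in fibroblasts, spleen, liver and brain, and edgeR called none, against 0.0% in the first 3 and 0.0237% in brain. At an unadjusted p of 0.05, limma picked 0 of 31 members in fibroblasts (0.971% of genes), 2 of 33 in spleen (6.27%), 2 of 31 in liver (6.67%) and 0 of 16 in brain (4.07%). At that threshold DESeq2 picked 0 in fibroblasts (1.3% of genes), 2 in spleen (9.05%), 2 in liver (6.97%) and 0 in brain (2.47%). In fibroblasts DESeq2 gave no p for Oas2 and Zbp1, with log2 fold changes of 2.94 and 2.88, so its counts there leave them untested. The counts for edgeR were 0 in fibroblasts (1.02% of genes), 2 in spleen (7.11%), 3 in liver (6.89%) and 0 in brain (3.99%). The plot of fold changes shows the intervals behind these counts, which were widest in fibroblasts, where the median standard error of a member was 0.97 on the log2 scale against 0.20 for all genes.

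**Figure D2:**
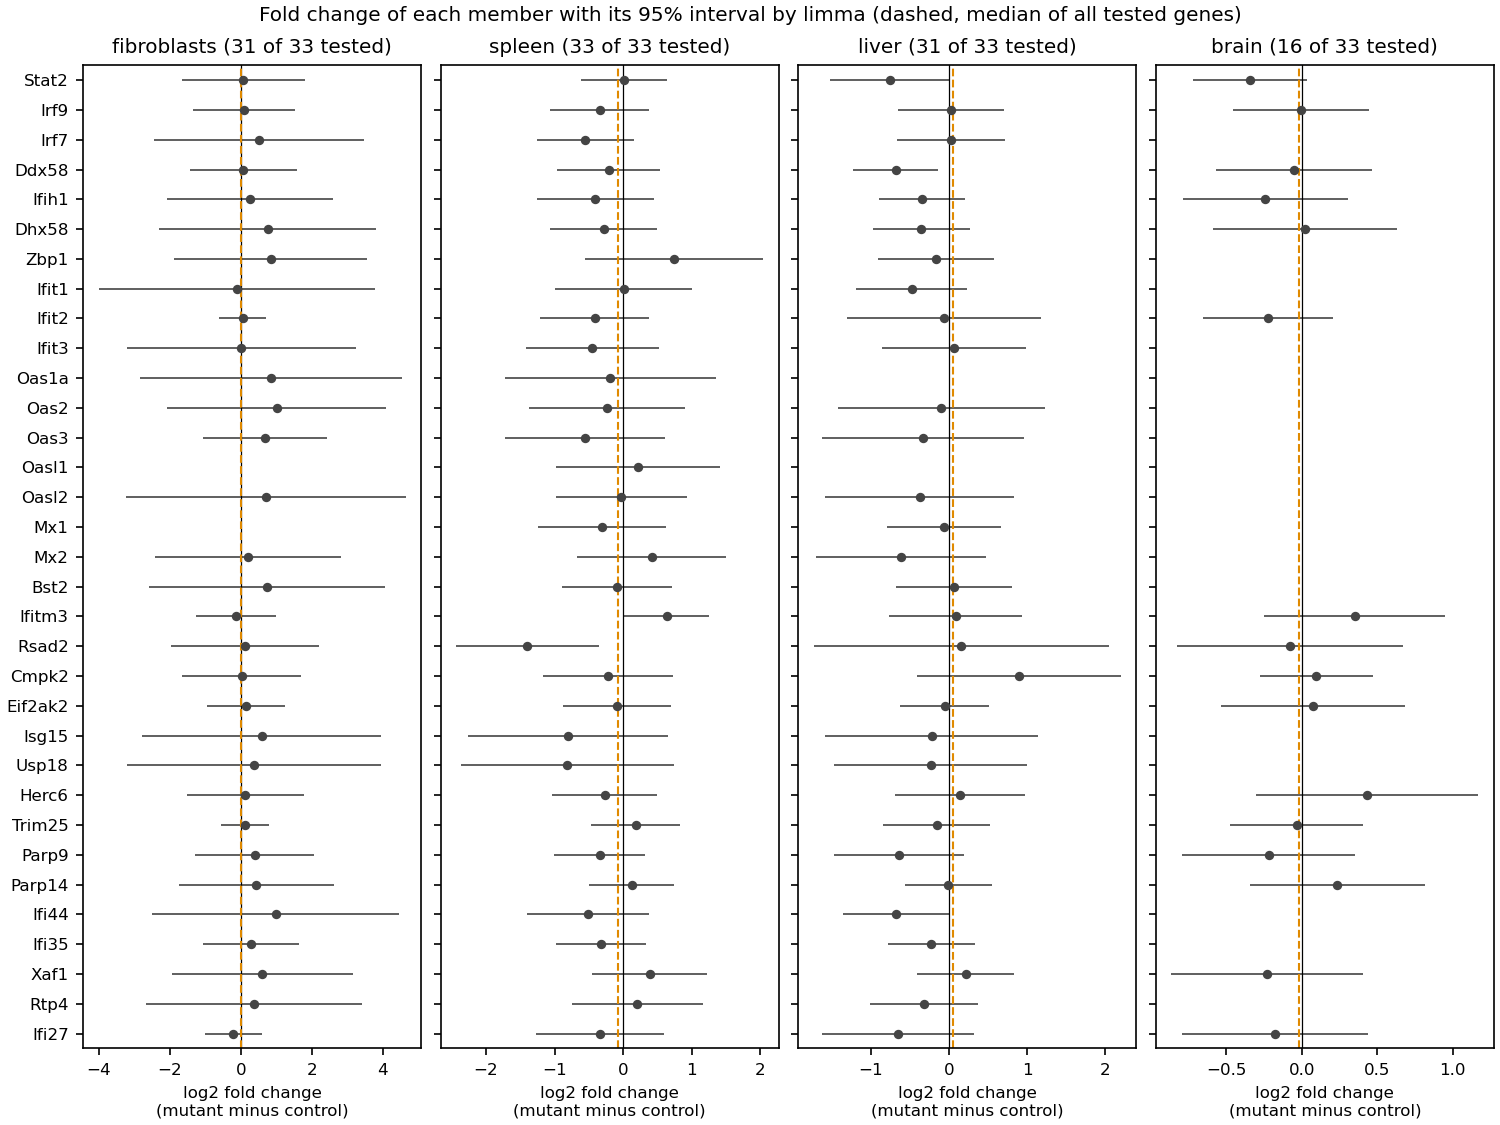
Log2 fold change (mutant minus control) of each tested member with its 95% limma interval, on axes whose range differs between the 4 tissues. In fibroblasts 28 of 31 points lie right of 0 with wide intervals, while in spleen 10 of 33, in liver 9 of 31 and in brain 6 of 16 points lie right of 0.

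In fibroblasts the members differed between libraries far more than between genotypes. Their median log2 fold change was 0.28, with 28 of 31 above 0, against -0.00 and 48.9% of all genes. The members' median was 0.97 by DESeq2 and 0.97 by edgeR on the recovered reads, for which no median over all genes is given. Mutant 3 was the highest of the 6 libraries for 29 of 31 members, against 12.2% of all genes, and mutant 1 the lowest for 29 of 31, against 24.0% of all genes. Cmpk2, Oas2, Oas3, Rsad2 and Zbp1 reached the mean of 1 only through mutant 3, so their place was fixed by the filter. They are also among the 28 members above 0, a direction that the filter favoured for them. With no filter, the median log2 fold change over all 33 members was 0.29. Among the 26 members with a mean of at least 1 over the other 5 libraries, a filter added after the data were seen, mutant 3 was highest for 24, against 12.0% of all genes so filtered. The 2 libraries at the ends of the range belonged to the same genotype. No member had mutants all above or all below controls, which 2.07% and 1.65% of all genes did.

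The summed signal of the 33 members was 390.0 in mutant 1, 897 in mutant 2 and 2608 in mutant 3, against 687 in control 1, 1211 in control 2 and 664 in control 3. The order of the libraries was nearly the same for each gene. Mutant 3 exceeded control 2 in 30 of 31 members, mutant 2 lay below control 2 in 30, mutant 2 exceeded control 1 in 24 and control 3 in 29, and mutant 1 lay below control 1 in 31 and control 3 in 29. Controls 1 and 3 had no steady order, with 15 members higher in control 3 and 16 in control 1. The median difference between mutant 3 and mutant 1 was 3.87 on the log2 scale, and 29 of 31 members were at least 2-fold higher in mutant 3, against 5.03% of all genes. Of the 26 members that passed without mutant 3, 24 were, against 4.90% of all genes so filtered.

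**Figure D3:**
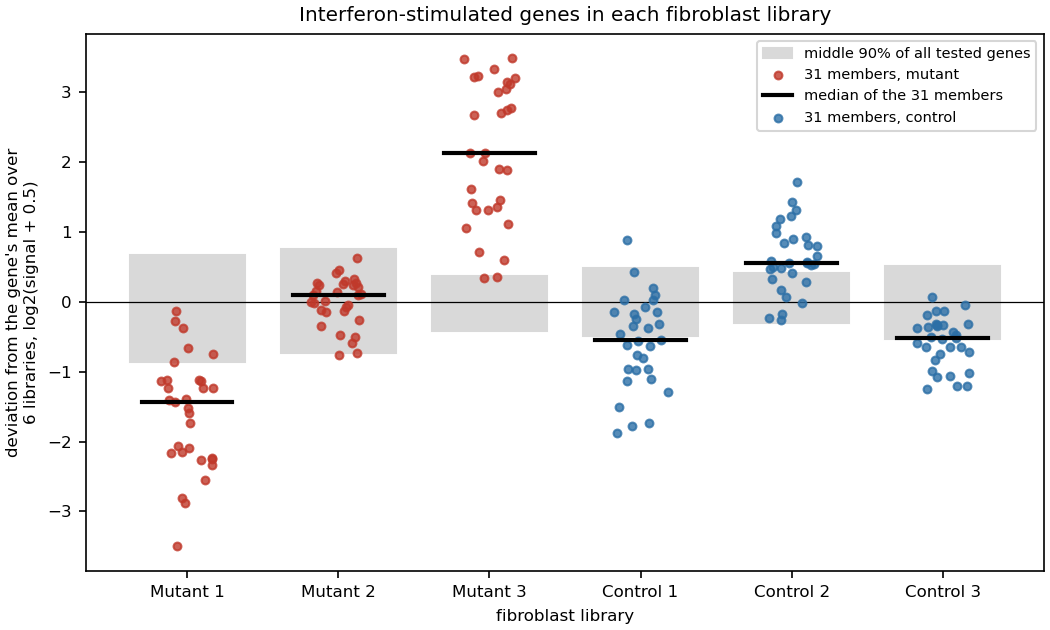
Deviation of each of the 31 tested members (points) from its own mean over the 6 fibroblast libraries, in log2(signal + 0.5), with the members' median (black bar) and the middle 90% of all 13077 tested genes (grey). The medians are -1.43, 0.10 and 2.13 in mutants 1, 2 and 3, and -0.54, 0.56 and -0.51 in controls 1, 2 and 3.

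The spread within genotypes was measured for every gene as the SD of log2(signal + 0.5) around the group means. Its median was 1.49 for the members and 0.25 for all genes. Every one of the 31 members lay above the median of all genes, the least variable being Ifit2 at the percentile 72.7. Cmpk2, Oas2, Oas3, Rsad2 and Zbp1 passed the filter only through mutant 3, so the filter favoured a large spread for them. The 26 other members lay above the median of all genes as well, but the members' median spread was not taken without these genes. Of the 100 most variable genes, 12 were members, 38.7% of the members against 0.765% of all genes. They were Bst2, Dhx58, Ifi44, Ifit1, Ifit3, Irf7, Isg15, Oas1a, Oas2, Oasl2, Rtp4 and Usp18, of which Oas2 passed the filter only through mutant 3. In spleen, liver and brain the top 100 held 0 members, and the median spread of the members was 0.34, 0.31 and 0.16, against 0.31, 0.26 and 0.15 for all genes. Among the members with a promoter window, the median fibroblast spread was 1.39 for the 12 with an ISRE core (range 0.69 to 2.48). It was 1.02 for the 10 tested without one (range 0.39 to 2.50), and the ranges overlap. Oas3 and Rsad2 with a core and Cmpk2 without one passed the filter only through mutant 3, so the filter favoured their spread.

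Members given library by library in fibroblasts were the 6 with the smallest p (Ifi44, Dhx58, Oas2, Oas3, Zbp1 and Ifi27), and others chosen for their role after their values were seen. Among the signalling factors, Stat2 had 19.7, 69.0 and 148 in mutants 1, 2 and 3, against 51.8, 84.5 and 40.1 in controls 1, 2 and 3. Irf7, the factor that amplifies interferon production, had 3.80, 24.7 and 133 in the mutants, against 9.98, 36.0 and 12.6 in the controls. The 3 controls lay between the lowest and the highest mutant for both genes, and for Irf9, at 19.4, 54.9 and 101 in the mutants and 36.2 to 64.2 in the controls.

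Of the sensors, Ddx58 (RIG-I) and Ifih1 (MDA5) bind viral RNA, Dhx58 (LGP2) modulates them, and Zbp1 senses nucleic acid in the Z form. Dhx58 had 0.974, 10.5 and 48.5 in mutants 1, 2 and 3, against 3.15, 12.1 and 3.07 in controls 1, 2 and 3, a log2 fold change of 0.76 ± 1.26 (SE). Zbp1 had 0.0464, 0.514 and 12.3 in the mutants, against 0.539, 0.698 and 0.490 in the controls, with a log2 fold change of 0.84 ± 1.12 (SE). Zbp1 passed the filter only through mutant 3, so that its standing apart there was fixed by the filter, while Dhx58 spread over all 6 libraries. Ddx58 ran from 23.7 to 132 in the mutants and from 36.0 to 77.6 in the controls.

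The 2-5A synthetases make the oligoadenylate that activates RNase L. Oas2 had 0.139, 0.411 and 16.4 in mutants 1, 2 and 3, against 0.360, 1.69 and 0.134 in controls 1, 2 and 3. Oas3 had 0.835, 0.360 and 4.97 in the mutants, against 0.989, 0.947 and 0.223 in the controls. For both enzymes mutant 3 was high and the other 5 libraries overlapped at 1.69 or less. Both passed the filter only through mutant 3, so its high place was fixed by the filter. Their log2 fold changes were 1.01 ± 1.28 and 0.67 ± 0.72 (SE). Oasl2, of the same family, ran from 0.696 to 98.5 in the mutants and from 3.10 to 23.1 in the controls. The Oas, Ifit, Ifitm and Mx families hold close copies, so the split of reads among their members is uncertain.

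The IFIT proteins bind viral RNA and block its translation. Ifit1 had 0.835, 15.9 and 141 in mutants 1, 2 and 3, against 11.1, 33.9 and 9.21 in controls 1, 2 and 3, and Ifit3 followed the same order at the ends, with 0.742 in mutant 1 and 59.8 in mutant 3. Ifit2 did not, with 11.0, 15.5 and 18.7 in the mutants against 19.6, 12.7 and 11.4 in the controls. The ranges of mutants and controls overlapped for all 3, and Ifit2 varied least of the members.

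In the ISG15 system, Isg15 had 1.62, 8.63 and 93.9 in mutants 1, 2 and 3, against 3.01, 19.2 and 7.30 in controls 1, 2 and 3. Usp18, the protease that removes Isg15 from proteins and dampens the receptor, had 0.603, 8.63 and 66.4 in the mutants, against 3.01, 17.6 and 4.41 in the controls. Both genes put mutant 3 first, control 2 second and mutant 1 last. Trim25, a ubiquitin ligase that activates RIG-I, varied much less, from 84.1 to 168 in the mutants and from 89.6 to 107 in the controls. Herc6, the mouse ligase that attaches Isg15, ran from 2.13 to 18.7 and from 5.12 to 7.38.

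Other effectors kept the order. Ifi44 had 1.53, 11.5 and 82.4 in mutants 1, 2 and 3, against 2.20, 22.0 and 3.83 in controls 1, 2 and 3, a log2 fold change of 0.98 ± 1.44 (SE). Bst2 had 3.76, 22.6 and 154 in the mutants, against 4.72, 40.4 and 14.8 in the controls. Xaf1, a pro-apoptotic protein, reached 207 in mutant 3, against 11.5 in mutant 1 and 14.6 to 47.6 in the controls. Ifitm3 and Eif2ak2 varied less than these. Ifitm3 had 85.0 to 284 in the mutants and 149 to 250 in the controls, and Eif2ak2, the kinase PKR that halts translation, had 31.6 to 112 and 42.7 to 65.2. Ifi27 had 48.6, 76.9 and 98.0 in the mutants, against 60.6, 115 and 81.0 in the controls, and its log2 fold change was -0.21 ± 0.33 (SE). Control 2, not mutant 3, was its highest library.

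Without mutant 3 the members' median log2 fold change in fibroblasts was -0.57, and without mutant 1 it was 1.24 (over 26 and 32 members, which passed the filter without that library). Over the same 31 members these medians were -0.57 and 1.29, so leaving out 1 library turned the sign. The log2 fold changes of Ifi44 and Dhx58 were -0.38 and -0.44 without mutant 3.

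Genes outside the list were read in the same libraries, from lists that share a few genes, among them Tlr3, Adar, Samhd1, Psmb8, Psmb9 and Tap1. Of 63 other interferon-stimulated genes, 47 were tested in fibroblasts. Mutant 3 was the highest library for 42 of them (41 of the 46 that passed without it) and mutant 1 the lowest for 31. Of 12 genes of class I antigen presentation, all tested, mutant 3 was highest for 12 and mutant 1 lowest for 9. H2-D1, a classical class I heavy chain, had 77.4, 122 and 325 in mutants 1, 2 and 3, against 68.5, 115 and 53.0 in controls 1, 2 and 3. Of the interferon-gamma-induced GTPases and class II genes, 9 of 23 were tested, and mutant 3 was highest for 8 (7 of the 8 that passed without it). Irgm1, a GTPase of cell-autonomous immunity, had 13.6, 26.6 and 107 in the mutants, against at most 37.9 in the controls.

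Upstream of the members, receptor genes differed little between the fibroblast libraries, and ligands were too low to compare. The 21 interferon ligand genes were all below the filter, Ifnb1 had no read in any library, and their summed signal was 0.308 to 0.365 in mutants and 0.0997 to 0.401 in controls, most of it from Ifnz. Of 11 receptor and Jak-Stat genes, 10 were tested, their median log2 fold change was -0.03, and their summed signal was 836 to 928 in mutants and 919 to 937 in controls. Ifnar1, a chain of the type I receptor, had 110.3, 113 and 114 in the mutants, against 116, 129 and 112 in the controls. Of 17 other sensors and adaptors, 14 were tested with a median of 0.02, and of 20 negative regulators 17 were tested with a median of -0.02 and a range of -0.57 to 0.42. Socs3, a feedback inhibitor of Jak-Stat signalling, was 55.7, 65.3 and 76.8 in the mutants, against 89.2, 81.2 and 127 in the controls, with no overlap, but the adjusted p by limma was 1.00.

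**Figure D4:**
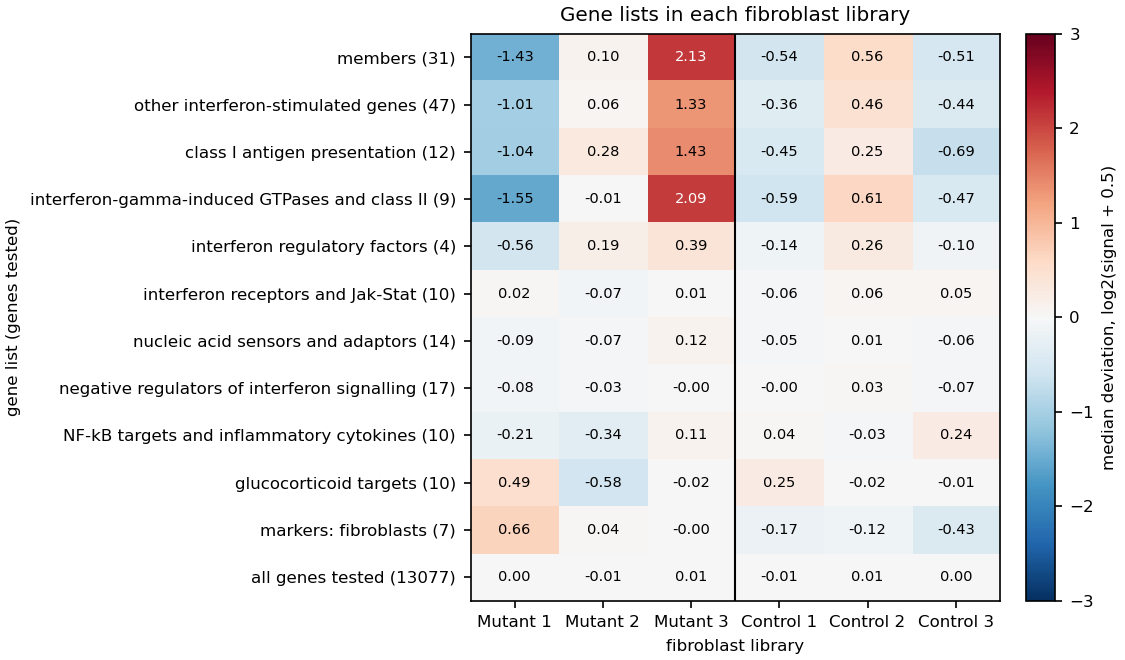
Median deviation of each gene list from its genes' means over the 6 fibroblast libraries, in log2(signal + 0.5), with the number of genes tested in brackets. The members, the other interferon-stimulated genes, class I presentation and the interferon-gamma GTPases are high in mutant 3 and low in mutant 1, while receptors, sensors, negative regulators and all genes stay near 0.

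Markers of 2 immune cell types were close to absent in these cultures: the 10 macrophage markers summed to 3.24 to 4.55 in mutants and 2.70 to 4.18 in controls, and the 5 plasmacytoid dendritic cell markers to 0.137 to 0.603 and 0.178 to 0.539. The 5 microglial markers summed to 192 to 262 in mutants and 168 to 234 in controls, and were lowest among mutants in mutant 3. The sum of the fibroblast markers was highest in mutant 1, at 36881, with 25350 in mutant 2, 23090 in mutant 3 and 20512 to 22308 in controls. Xist was lowest in mutant 3, at 2.33. All 7 fibroblast markers had a fold change above 0, 2 of them with no overlap between genotypes. The part of these levels in the members' order was not tested.

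In spleen 33 of 33 members were tested, and their median log2 fold change was -0.24, with 10 above 0, against -0.07 and 43.5% of all genes. Scaled by library totals alone, the medians were -0.15 for the members, with 11 above 0, and 0.01 for all genes. Mutants lay wholly below controls for 8 members (24.2%, against 21.9% of all genes) and wholly above for 2 (6.06%, against 18.3%). Control 1 was the highest library for 20 of 33 members, against 40.0% of all genes. The summed signal of the members was 749 and 771 in mutants, against 1156 in control 1 and 799 in control 2, and without Rsad2 it was 663 and 650.0 in mutants, against 751 and 621 in controls. Without control 1 the median was 0.10, and without control 2 it was -0.46.

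Rsad2 had 85.6 and 121 in mutant spleens, against 404 and 178 in control spleens. It was the member with the smallest p and the largest fold change in spleen, a log2 fold change of -1.40 ± 0.44 (SE), with no overlap between the groups. It passed by none of the 3 tools fitted without a replicate term, with an adjusted p of 0.722 by limma, 0.0571 by DESeq2 and 0.665 by edgeR. Ifitm3 had 58.6 and 53.0 in mutant spleens, against 36.7 and 34.5 in control spleens, a log2 fold change of 0.64 ± 0.26 (SE) with an adjusted p of 0.779 by limma. Its neighbour family member Ifitm1 also stood higher, at 81.4 and 123 in mutants against 46.3 and 60.1 in controls.

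The other members named for spleen by their p were lower in mutants except Zbp1. Irf7 had 13.8 and 14.4 in mutants, against 24.1 and 18.2 in controls. Ifi44 had 3.00 and 2.04 in mutants, against 3.72 and 3.76 in controls. Neither of these 2 overlapped between groups, with log2 fold changes of -0.55 ± 0.30 and -0.51 ± 0.37 (SE). Isg15 had 1.58 and 1.98 in mutants, against 6.89 and 1.61 in controls, so that the difference lay in control 1, and without control 1 the log2 fold change was 0.11. Zbp1 had 4.96 and 2.57 in mutants, against 3.31 and 1.07 in controls. Ifi44, Isg15 and Zbp1 rest on 18 to 100 reads per library. For Irf7, Ifi44, Isg15 and Zbp1 the adjusted p by limma was 0.779 to 0.782.

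Upstream of the members in spleen, Tlr7 and Tlr8, X-linked endosomal receptors for single-stranded RNA, were higher in mutants. Tlr7 had 38.1 and 34.8 in mutants, against 9.10 and 15.7 in controls, and was called by DESeq2 (adjusted p = 0.0160) but not by limma (adjusted p = 0.460). Tlr8 had 37.0 and 22.5 in mutants, against 9.93 and 12.6 in controls. Mavs, the mitochondrial adaptor of RIG-I, had 40.6 and 48.2 in mutants, against 115 and 59.9 in controls. The 17 sensors and adaptors had a median of -0.09, the 11 receptor and Jak-Stat genes 0.01, and the 18 tested negative regulators -0.13. The ligand genes, all below the filter, summed to 2.18 in mutant 1 and 0 in mutant 2, against 0.138 and 0.119 in controls, with reads of the near-identical Ifna genes in mutant 1 alone. That library had the fewest reads of all, 12356231, yet 32381 genes with reads, against 25166 to 26940 in the other spleens. What its Ifna reads stem from was not tested. The 17 tested interferon-gamma GTPases and class II genes had a median of -0.15 with 8 above 0. Mutants lay wholly above controls for 5 of them (29.4%, against 18.3% of all genes) and wholly below for 4 (23.5%, against 21.9%). Of this list, the GTPases Irgm2 and Igtp were lower in mutants, Irgm2 with 16.5 and 26.6 against 54.5 and 50.9, and passed by no tool. The 58 tested other interferon-stimulated genes had a median of -0.14 with 22 above 0, and the 12 class I genes -0.14 with 4 above 0.

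Other gene groups differed between the same spleens. Of 15 direct glucocorticoid targets, which inflammation-suppressing hormones induce, 13 lay above 0 with a median of 1.92, and DESeq2 called 9 higher in mutants. Fibroblast markers summed to 4645 and 2863 in mutants, against 1889 and 2337 in controls. Endothelial markers summed to 1035 and 720 in mutants, against 467 and 647 in controls. The 5 plasmacytoid dendritic cell markers summed to 15.5 in mutant 1 and 335 in mutant 2, against 38.5 and 40.6 in controls. Klk1, which the pancreas also makes, carried the high sum, and the 4 others summed to 14.8 and 22.8 in mutants, against 18.2 and 40.4 in controls. The pancreatic acinar markers summed to 11.9 in mutant 1 and 5886 in mutant 2, against 700.1 and 9.12 in controls. B lymphocyte markers, 5 of 5 below 0, summed to 145 and 224 in mutants, against 150.4 and 526 in controls. Neutrophil markers, 7 of 8 below 0, summed to 3631 and 7861 in mutants, against 3658 and 11356 in controls. The B lymphocyte and neutrophil sums were highest in control 2. Erythroid markers, 7 of 7 below 0, summed to 17182 and 21659 in mutants, against 38641 and 20242 in controls. The erythroid sum and the members' sum were highest in control 1. The part of these groups in the members' values was not tested.

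In liver 31 members were tested, and their median log2 fold change was -0.16, with 9 above 0, against 0.05 and 55.9% of all genes. The members' median was -0.30 by DESeq2 and -0.29 by edgeR, for which no median over all genes is given, so these values have no background here. Mutants lay wholly below controls for 11 members (35.5%, against 13.1% of all genes) and wholly above for 1 (3.23%, against 23.5%). The 11 were Stat2, Ifit1, Ifi44, Ifih1, Ddx58, Dhx58, Mx2, Ifi35, Rtp4, Parp9 and Ifi27, and the 1 was Xaf1. Control 1 was the highest library for 15 of 31 members, against 15.4% of all genes. Leaving out each liver library in turn moved the median between -0.33 and -0.09.

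Of the members in liver, Ddx58 had the smallest p. It had 14.7 and 16.1 in mutant livers, against 23.2 and 26.9 in control livers, a log2 fold change of -0.68 ± 0.21 (SE) with an adjusted p of 0.676 by limma and 0.302 by DESeq2. Ifih1 had 15.8 and 16.9 in mutants, against 19.3 and 22.7 in controls. Dhx58 had 3.24 and 3.43 in mutants, against 4.77 and 4.06 in controls. All 3 RIG-I-like receptors were thus lower in both mutant livers, by less than 2-fold, and none passed. Stat2 had 28.9 and 47.9 in mutants, against 62.3 and 64.0 in controls, a log2 fold change of -0.76 ± 0.30 (SE) with an adjusted p of 0.749 by limma.

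Among the effectors in liver, Ifi44 had 1.38 and 1.37 in mutants, against 2.67 and 2.33 in controls, and Ifit1 had 1.48 and 1.17 in mutants, against 1.97 and 2.09 in controls. Both rest on 29 to 58 reads per library. Parp9, an ADP-ribosyltransferase that pairs with the ligase Dtx3l, had 22.0 and 34.8 in mutants, against 36.6 and 51.7 in controls. Dtx3l, whose gene overlaps Parp9 on the other strand, had 19.0 and 38.3 in mutants, against 53.9 and 96.6 in controls, and since strand use in counting is not stated, reads of the pair cannot be told apart. Cmpk2 went the other way, with 31.9 and 14.4 in mutants, against 16.0 and 7.96 in controls, groups that overlap. Their log2 fold changes were -0.68 ± 0.26 for Ifi44, -0.48 ± 0.27 for Ifit1, -0.64 ± 0.32 for Parp9 and 0.89 ± 0.51 for Cmpk2 (SE), with adjusted p of 0.746 to 0.834 by limma.

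Of the upstream genes in liver, Setdb2, an interferon-induced histone methyltransferase reported to restrain antiviral genes, had 591 and 497 in mutants, against 36.3 and 23.8 in controls. DESeq2 called it, with a log2 fold change by limma of 4.18 ± 0.29 (SE), but its adjusted p by limma was 0.106. With Setdb2 included, the 18 tested negative regulators had a median of 0.09. The 11 receptor and Jak-Stat genes had a median of -0.04, the 52 tested other interferon-stimulated genes -0.04 with 22 above 0, the 12 class I genes -0.18 with 2 above 0, and the 17 tested interferon-gamma GTPases and class II genes -0.22 with 4 above 0. In that last list DESeq2 called Iigp1 lower, at 11.3 and 8.27 in mutants against 18.4 and 37.1 in controls, and Tgtp1 higher, at 11.0 and 7.62 against 2.48 and 2.21. All 15 glucocorticoid targets lay above 0 in liver with a median of 1.31, and DESeq2 called 8. The macrophage markers summed to 681 and 1017 in mutants, against 721 and 899 in controls. Endothelial markers summed to 347 and 346 in mutants, against 246 and 317 in controls, and fibroblast markers to 645 and 569 in mutants, against 397 and 508 in controls, with no overlap for either sum. The part of these markers in the members' values was not tested.

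In brain 16 members had a mean signal of at least 1. Their median log2 fold change was -0.04, with 6 above 0, against -0.01 and 46.1% of all genes. Mutants lay wholly below controls for 5 tested members (31.2%, against 16.3% of all genes), Stat2, Ifit2, Ifih1, Xaf1 and Parp9, and wholly above for 2 (12.5%, against 13.8%), Ifitm3 and Parp14. Stat2 had 28.7 and 35.2 in mutant brains, against 46.0 and 35.6 in control brains, a log2 fold change of -0.34 ± 0.17 (SE). Ifit2 had 8.53 and 10.5 in mutants, against 11.5 and 10.8 in controls. Ifih1 had 2.65 and 2.85 in mutants, against 3.66 and 3.04 in controls. The gap between the closest mutant and control was small for all 3.

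Ifitm3 had 1.87 and 2.41 in mutant brains, against 1.53 and 1.59 in control brains, and Parp14, a relative of Parp9, had 2.07 and 2.14 in mutants, against 1.58 and 1.84 in controls. Herc6 had 1.10 and 1.74 in mutants, against 0.655 and 1.20 in controls, groups that overlap. Values of Ifitm3, Parp14 and Herc6 rest on 12 to 54 reads per library. The log2 fold changes of these 3 were 0.35 ± 0.26, 0.24 ± 0.26 and 0.43 ± 0.32 (SE), and the adjusted p by limma was 1.00 for each of the 16. The 17 members below the filter, among them Isg15, Irf7, Ifit1, both Mx genes and all 5 genes of the 2-5A synthetase family, had at most 1.49 in any brain library. Microglial markers, of which 5 were tested, summed to 68.8 and 69.0 in mutants, against 90.3 and 80.4 in controls, and their part was not tested. Stat2 was lower in mutants in liver and brain, and in spleen had 50.7 and 57.9 in mutants against 56.0 and 51.6 in controls, but the difference between tissues was not tested. The 32 tested other interferon-stimulated genes had a median of -0.06 with 10 above 0, the 11 receptor and Jak-Stat genes -0.13 with 2 above 0, and the 12 tested glucocorticoid targets 0.36 with 11 above 0.

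Rsad2 and Cmpk2 are neighbours on chromosome 12 that are read away from each other, with 12.8 kb between their starts, and they are often induced together. Rsad2 took 11.4% and 15.7% of the members' summed signal in mutant spleens, against 35.0% and 22.3% in control spleens. Its share was 33.3% and 17.1% in mutant livers, against 32.1% and 11.3% in control livers. It had 193 and 84.5 in mutant livers, against 221 and 58.9 in control livers, where the groups overlap. In fibroblasts it had 0.0928, 0.360 and 4.29 in the mutants, against 1.89, 0.598 and 0.223 in the controls, and 0.802 to 1.47 in brain. Cmpk2 had 29.1 and 38.3 in mutant spleens, against 56.3 and 27.0 in control spleens, a log2 fold change of -0.22 ± 0.40 (SE). It kept 16.7 and 20.3 in mutant brains, against 16.5 and 17.8 in control brains, where Rsad2 was near 1.

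**Figure D5:**
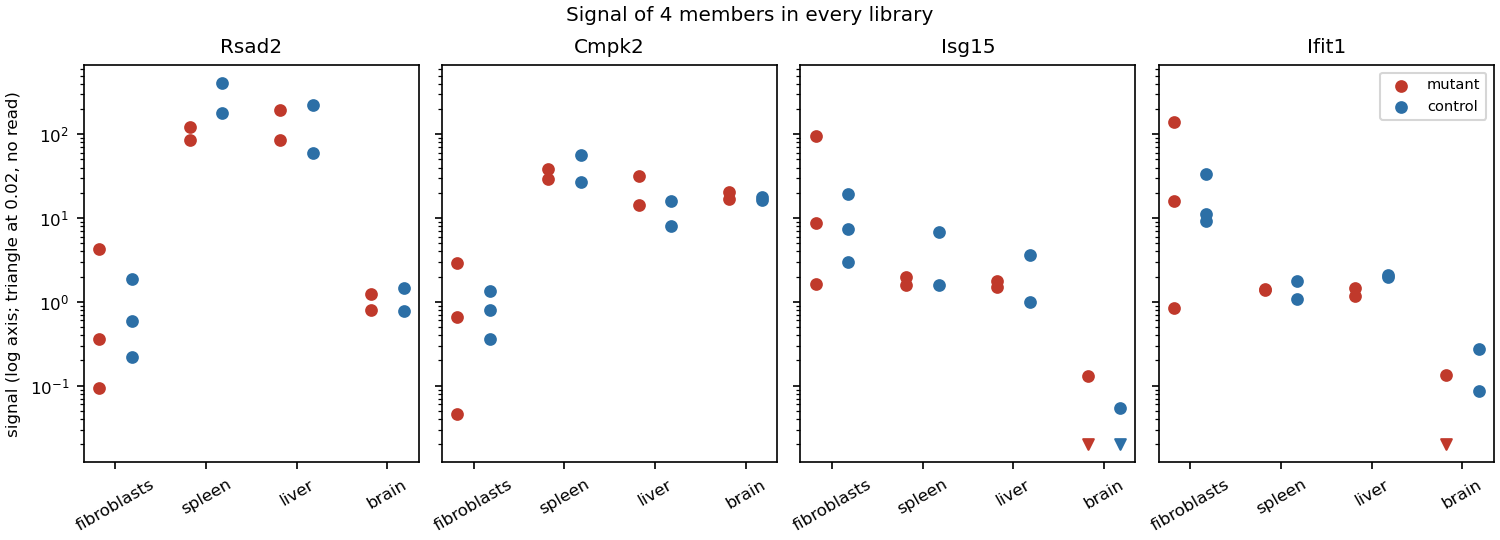
Signal of Rsad2, Cmpk2, Isg15 and Ifit1 in each library on a log axis, with mutants (red) left of controls (blue) in each tissue and triangles for libraries without a read. Rsad2 is highest in spleen and liver, Cmpk2 stays near 20 in brain, and Isg15 and Ifit1 are highest and most spread in fibroblasts.

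The level of Rsad2 was set beside erythroid markers in the blood-forming organs. The 7 erythroid markers, globins, Alas2 and Slc4a1 among them, summed to 17182 and 21659 in mutant spleens, against 38641 and 20242 in control spleens. In liver they summed to 28862 and 12587 in mutants, against 22707 and 7565 in controls. In each of the 4 groups, of 2 libraries each, the library with more erythroid signal also had more Rsad2. Pairs of a mutant and a control did not all keep that order. Spleen mutant 2 had more erythroid signal than control 2 but less Rsad2, at 121 against 178. Liver mutant 1 had more than control 1 but less Rsad2, at 193 against 221. The other such pairs within a tissue kept the order. Scaled by the erythroid sum (Rsad2 signal per 1000 units), Rsad2 was 4.98 and 5.58 in mutant spleens, against 10.5 and 8.80 in control spleens. In liver this ratio was 6.68 and 6.71 in mutants, against 9.74 and 7.79 in controls. This ratio was formed after the values were seen, and the part of erythroid cells in the Rsad2 level was not tested. Brain held 337 to 689 units of erythroid signal in mutants and 292 to 654 in controls, and fibroblasts at most 0.0890.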

How the data were processed

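RNA-seq of ribosome-depleted total RNA gave 50-nt reads, per the labels' protocols and design text. Reads were counted per gene with HTSeq 0.6.1 and scaled with edgeR on GRCm38 (mm10), per the submitters' processing notes. Aligner, annotation and use of strand were not stated. The deposited values are a signal, gene counts divided by a library factor. Dividing by the value of 1 read gave whole reads for 100% of values (tolerance 0.05). Gene names came from GENCODE M21, which matched 45229 of 46078 identifiers.

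Genes averaging 1 or more over a tissue's libraries were tested on log2(signal + 0.5) with limma 3.58.1 (trended, moderated; Benjamini-Hochberg over the table, threshold 0.05) under R 4.3.3. Fold changes on this scale understate those of low genes. DESeq2 1.42.0 and edgeR 4.0.16 (quasi-likelihood) were run on the recovered reads, and the limma fit was repeated with pseudocounts of 0.1 and 1, no filter, a mean of at least 5, library totals, a replicate block and each library left out. The fits were tested on simulated data. Replicates of a group differed by more than counting noise in every pair. Members and gene lists were chosen with earlier results of these data known. Members given in full were, per tissue, those past the threshold, those with non-overlapping groups and an absolute log2 fold change of at least 1, and the 6 with the smallest p. Other members and list genes given library by library were chosen for their role after their values were seen. Some list genes are not reported here by name. Levels without fibroblast mutant 3, the filter on the other 5 fibroblast libraries and medians over the same 31 members were added after seeing the data.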

Additional observations from a re-analysis of the deposited data

Results flagged for a closer look

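Xaf1 had opposite directions in 2 tissues. It had 5.62 and 5.04 in mutant livers, against 4.96 and 4.10 in control livers (log2 fold change 0.216), and 1.10 and 0.936 in mutant brains, against 1.15 and 1.42 in control brains (log2 fold change -0.229). The brain values rest on 17 and 21 reads in mutants, against 21 and 33 in controls, and the closest mutant and control were 1.10 and 1.15. The groups did not overlap in either tissue, neither change passed, and the difference between the tissues was not tested.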

How the results depend on the processing

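The count of 0 called members held under each alternative except the replicate block in spleen, where limma called 1, Rsad2 (adjusted p = 0.0231). No label says what shared numbers mean, and samples were treated as unpaired; deviations of same-numbered samples correlated unevenly (correlations of -0.08, 0.43 and 0.02 in fibroblasts, -0.03 in spleen, 0.58 in liver and 0.08 in brain), and the block moved the genes called to 356 in spleen and 60 in liver. DESeq2 called 3 genes in fibroblasts, 182 in spleen, 211 in liver and 41 in brain, and no filter gave 22 in spleen, 11 in liver and 13 in brain. The cause was not tested.

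Leaving out each library in turn gave 0 to 177 genes called in spleen (170 without mutant 1, 177 without mutant 2) and 6 to 109 in brain (9 without mutant 1, 27 without mutant 2, 109 without control 2); a lone library is then assumed to vary like the others. The members' median ran from -0.57 to 1.24 in fibroblasts, -0.46 to 0.10 in spleen, -0.33 to -0.09 in liver and -0.16 to 0.027 in brain. Directions turned for Ifi27 in fibroblasts (0.068 without mutant 1, 0.030 without control 2; lowest -0.43), for Ifi44 (-0.38; range to 2.30) and Dhx58 (-0.44; range to 2.08) without mutant 3, and for Isg15 in spleen (0.11 without control 1; range -1.70 to 0.11). With 2 libraries a group, small differences in these tissues were not detectable.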
